A study of Mus musculus with 20 samples.

Results

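The transcripts described here belong to 9 mouse genes that restrain cell division, out of 27962 gene names on the array. They are the cyclin-dependent kinase inhibitors Cdkn1a (p21), Cdkn1b (p27), Cdkn1c (p57) and Cdkn2c (p18), the stress sensors Gadd45a, Gadd45b and Gadd45g, and the antiproliferative factors Btg1 and Btg2. Members were chosen by gene name, with earlier results of these data known. Each was represented by its brightest probe, the one with the highest mean log2 signal over the 20 arrays. The array held 16 probes for the 9 genes. All 9 were well above background on all 20 arrays, and none was saturated.

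The animals were adult C57bl6/J females, 10 or more weeks old by their label, that had been ovariectomized and left to rest for 10 to 14 days, so every group, controls included, lacked ovarian hormone. Each received 1 subcutaneous injection in sesame oil. The groups were sesame oil alone (vehicle, n = 3), 250 ng estradiol (E2) with uteri taken at 2 h (n = 3) or 24 h (n = 2), 750 µg bisphenol A (BPA) at 2 h (n = 3) or 24 h (n = 3), and 750 µg HPTE, the estrogenic metabolite of the pesticide methoxychlor, at 2 h (n = 3) or 24 h (n = 3). Each sample was hybridized alone to a one-colour array and is taken here as the RNA of 1 whole uterus. A group of 3 is then 3 uteri, and p-values measure the spread between these samples. The paper describes array RNA made from pooled uterine tissue, without a separate account for these samples. The vehicle uteri were titled as 24 h samples and served as controls for both times, because no vehicle array at 2 h was analysed here. All 6 comparisons with vehicle therefore share the same 3 control arrays. In comparisons of 2 h groups with vehicle, the compound cannot be told apart from the injection and the time since it. The same holds for differences between 24 h and 2 h within a compound.

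E2 acts in the uterus through estrogen receptor alpha, first with a burst of early transcripts and later with a wave of DNA synthesis and mitosis in the epithelium. The Cip/Kip inhibitors encoded by Cdkn1a, Cdkn1b and Cdkn1c bind cyclin and kinase complexes and hold cells before S phase, whereas the INK4 protein encoded by Cdkn2c binds Cdk4 and Cdk6 and blocks their pairing with D cyclins. Gadd45 proteins are small partners of stress kinases that are induced by DNA damage, growth arrest and other stimuli, and Btg proteins slow proliferation and recruit the CCR4-NOT deadenylase that shortens mRNA tails. BPA and HPTE are both bisphenolic xenoestrogens, but the doses of E2 and of the xenoestrogens differed, so differences between E2 and either compound are differences at these doses.

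Throughout, a level is the log2 processed signal of a probe minus the 75th percentile of its own array, a change is a difference between group means of that level with its standard error (SE), and a fold is 2 to the power of the change. A transcript was called when the Benjamini-Hochberg adjusted p from limma, over all 32456 tested probes of that comparison, was under 0.05. Groups whose uteri do not overlap are given as a description, and the share of all probes that separate so was not counted. A bulk uterus was measured, so fewer cells of a type and less RNA per cell cannot be told apart. The moderated F test over the 7 groups called 9 of 9 members, beside 81.4% of all tested probes.

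The 20 arrays did not hold the same tissue in every respect. Replicates of a group correlated at 0.975 to 0.993 over tested probes, and 72.7% to 81.4% of probes were well above background. The summed signal of 10 sperm cell markers was 57220 to 192300 on the vehicle arrays, with 9 or 10 of the 10 well above background, and 566.4 to 23530 on the 17 treated arrays. At 2 h it was 850.3 to 2665 with E2, 11270 to 23530 with BPA and 3526 to 10610 with HPTE. At 24 h it was 566.4 to 1367, 5687 to 10280 and 2372 to 3248. Of the 10 markers, 6 or 7 were well above background with E2, 8 to 10 with BPA and 7 to 9 with HPTE. The compounds thus differed in these markers too. Exocrine pancreas markers, 9 in the list, summed to 4183000 and 257600 on E2 2 h replicates 2 and 3 and to 8250 and 20800 on the 2 E2 24 h arrays, against 577.7 to 1035 on every other array. The uterine epithelial markers (7 of 7 well above background everywhere) summed to 440800 to 490600 in E2 24 h, 263000 to 285700 in HPTE 24 h, 212200 to 224000 in BPA 24 h and 153500 to 179900 in vehicle. The 5 fat markers summed to 26670 to 33600 in E2 24 h and 67160 to 151500 in vehicle. At 2 h the 7 stromal markers summed to 598200 to 710100 with E2, 482500 to 666000 with BPA and 476500 to 510000 with HPTE. The 7 leukocyte markers summed to 160200 to 278100, 186400 to 252600 and 119300 to 154400. The part of sperm, pancreas, epithelial, fat, stromal or leukocyte RNA in the results was not tested. Comparisons of 24 h with 2 h and of compounds with each other hold no vehicle level, but the vehicle arrays take part in the estimate of the spread that all comparisons share.

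**Figure D1:**
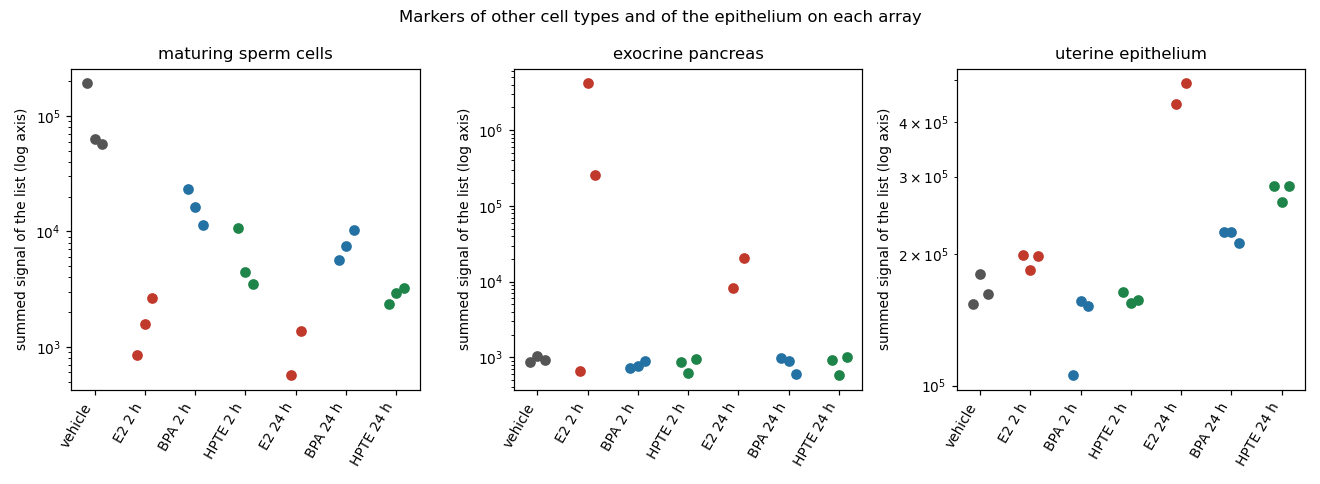
Summed processed signal of the markers of sperm cells, exocrine pancreas and uterine epithelium (log axes) on each of the 20 arrays, 1 point per array, coloured by compound. The 3 vehicle arrays are highest for sperm markers, 4 of the 5 E2 arrays stand apart for pancreas markers, and the 2 E2 24 h arrays are highest for epithelial markers.

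At 2 h, 5 of the 9 transcripts increased with every compound against the 24 h vehicle. These were Cdkn1a, Gadd45a, Gadd45b, Gadd45g and Btg2. Gadd45g had the largest change, 27.0-fold with E2, 14.2-fold with BPA and 20.6-fold with HPTE. Cdkn2c and Btg1 decreased with every compound, Cdkn1b decreased with BPA and HPTE, and Cdkn1c decreased with BPA alone, although the differences between compounds for Cdkn1c were not called. The calls were 7 of 9 for E2 (28.1% of all probes were called), 9 of 9 for BPA (49.4%) and 8 of 9 for HPTE (48.1%). The median change over the members was 1.36, 0.88 and 1.38, beside -0.06, -0.10 and -0.09 over all tested probes.

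**Figure D2:**
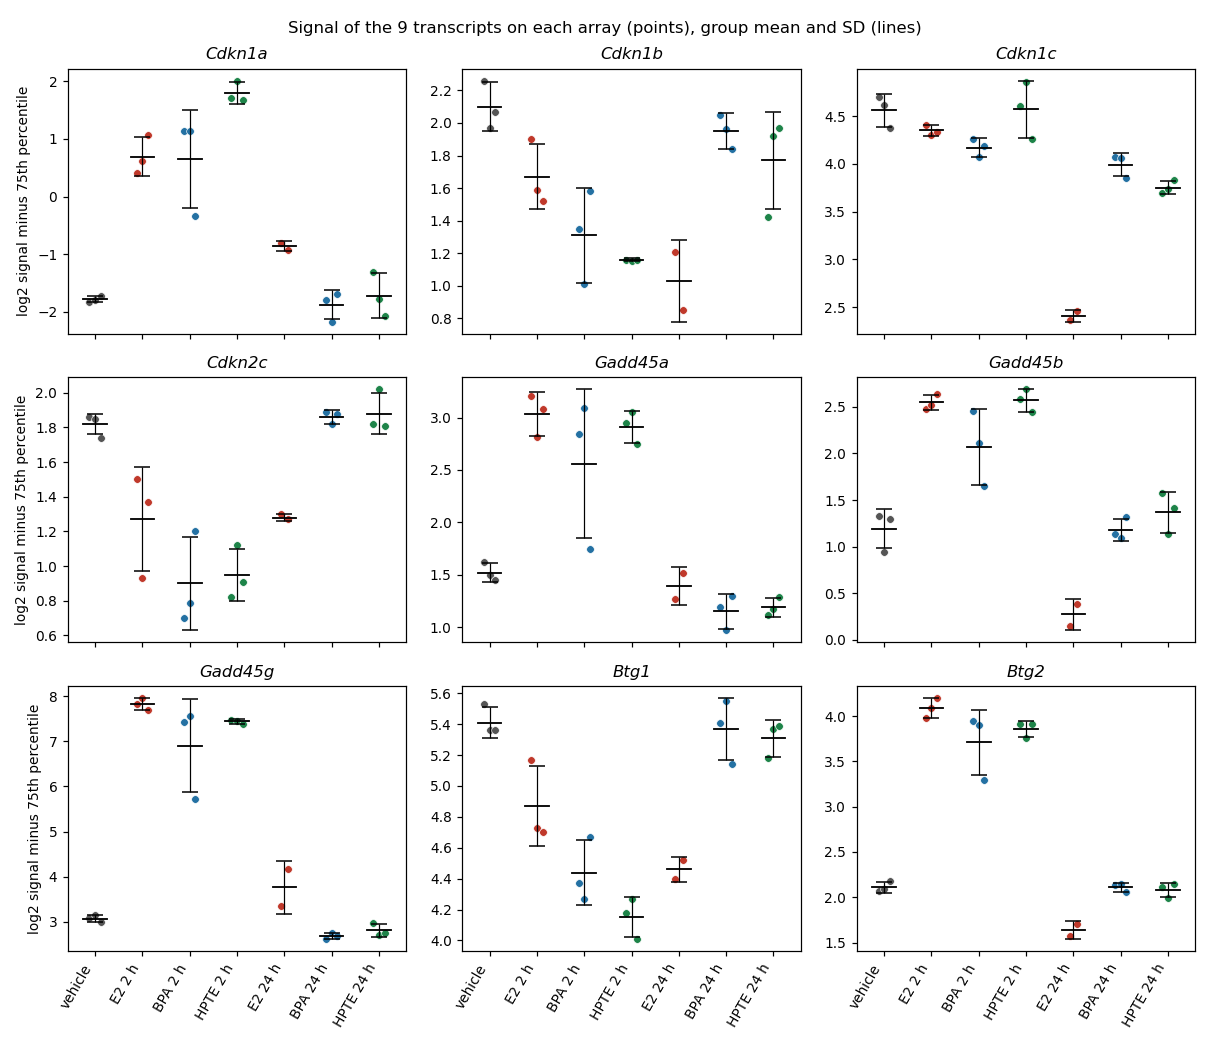
Level of each transcript (log2 signal minus the 75th percentile of the array) on each array, 1 point per uterus, with the group mean and SD as black lines, for vehicle and the 3 compounds at 2 h and 24 h. Cdkn1a, Gadd45a, Gadd45b, Gadd45g and Btg2 are raised in every 2 h group, Btg1 and Cdkn2c are lowered there, and Cdkn1c is lowest in the 2 E2 24 h uteri at 2.37 and 2.46.

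The promoters of the 5 transcripts that increased together at 2 h are shown because they are the sequences in which a shared short motif could be looked for. RefSeq promoters (build GRCm38.p6, 250 bases before to 50 after a start) matched 8 of the 9 members by symbol, with 10 starts. Cdkn1c was not matched. The 250 bases before each start are printed 5′ to 3′ on the gene's strand. Capitals mark matches on either strand to the AP-1 site (TGANTCA), the cyclic AMP response element or CRE (TGACGTCA), the Sp1 site (GGGCGG), the CCAAT box of that spelling, the TATA box (read as TATAAA), the CArG box and the decamer to which p53 binds.
Cdkn1a upstream start, chr17:29090729-29090978, plus strand: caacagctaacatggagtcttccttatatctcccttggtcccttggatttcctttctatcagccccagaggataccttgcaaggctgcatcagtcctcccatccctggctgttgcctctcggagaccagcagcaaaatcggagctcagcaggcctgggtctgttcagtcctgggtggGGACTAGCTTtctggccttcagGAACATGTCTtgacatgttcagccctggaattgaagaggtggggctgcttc
Cdkn1a downstream start, chr17:29093519-29093768, plus strand: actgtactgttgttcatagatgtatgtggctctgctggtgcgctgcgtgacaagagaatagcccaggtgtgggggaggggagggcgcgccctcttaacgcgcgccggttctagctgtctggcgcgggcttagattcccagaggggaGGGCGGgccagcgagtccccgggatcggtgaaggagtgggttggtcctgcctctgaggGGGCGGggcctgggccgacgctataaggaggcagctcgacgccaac
Gadd45a, chr6:67037408-67037657, minus strand: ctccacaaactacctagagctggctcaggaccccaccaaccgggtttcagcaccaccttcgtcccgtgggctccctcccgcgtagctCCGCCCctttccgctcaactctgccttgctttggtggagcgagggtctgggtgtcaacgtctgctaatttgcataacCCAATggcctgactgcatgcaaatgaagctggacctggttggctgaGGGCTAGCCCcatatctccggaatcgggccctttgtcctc
Gadd45b, chr10:80929841-80930090, plus strand: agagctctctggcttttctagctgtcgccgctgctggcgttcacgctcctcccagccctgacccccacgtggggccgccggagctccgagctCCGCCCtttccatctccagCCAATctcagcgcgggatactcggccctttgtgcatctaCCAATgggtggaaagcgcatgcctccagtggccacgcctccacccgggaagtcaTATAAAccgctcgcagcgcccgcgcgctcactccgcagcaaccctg
Gadd45g, chr13:51846425-51846674, plus strand: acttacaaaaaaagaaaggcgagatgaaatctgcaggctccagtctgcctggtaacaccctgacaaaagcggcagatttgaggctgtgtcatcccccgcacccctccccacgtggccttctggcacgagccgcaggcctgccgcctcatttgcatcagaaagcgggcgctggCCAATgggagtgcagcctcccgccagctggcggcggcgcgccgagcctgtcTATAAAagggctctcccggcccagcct
Btg2, chr1:134079156-134079405, minus strand: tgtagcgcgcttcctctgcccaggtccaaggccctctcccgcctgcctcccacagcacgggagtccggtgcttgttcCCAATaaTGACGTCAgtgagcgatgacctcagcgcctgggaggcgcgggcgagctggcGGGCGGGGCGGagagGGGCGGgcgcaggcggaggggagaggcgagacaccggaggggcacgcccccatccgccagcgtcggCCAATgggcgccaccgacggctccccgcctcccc

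The full palindromic estrogen response element was found in 0 of the 8 matched members, and in 0.07% of all 32851 promoters. A single arm of it, GGTCA, was present in 3 members (Cdkn2c, Gadd45b and Btg2), against 40.5% of all promoters. Neither AP-1 nor the CArG box matched any member, and they matched 7.81% and 1.63% of all promoters. The CRE letters were in Btg2 alone, at -166 to -159 from its start, and in 1.79% of all promoters. The p53 decamer lay before the upstream start of Cdkn1a, which held 2, and before Gadd45a, against 8.36% of all promoters. The CCAAT box was in 7 of the 8 members (37.4% of all promoters), Sp1 letters were also in 7 (35.7%), with overlapping matches in Btg2, and TATAAA was in 3 (13.6%), namely Gadd45b, Gadd45g and Btg1. A member counted if any of its starts matched, and Cdkn1a and Cdkn2c had 2 starts, whereas the percentages are of single promoters. The 5 transcripts that increased shared no motif of the list, since the CCAAT box and Sp1 were each in 4 of the 5, and a match of letters is a description and not a bound site.

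Cdkn1a encodes p21, the inhibitor best known as a target of p53. Its probe (A_51_P363947, chr17:27293819-27293878, mm7, plus strand, read from 10 spots) gave levels of -1.83, -1.79 and -1.72 in vehicle. At 2 h the levels were 0.41, 0.61 and 1.06 with E2, 1.14, 1.14 and -0.34 with BPA, and 1.71, 2.01 and 1.67 with HPTE. Every treated uterus at 2 h was above every vehicle uterus, and every HPTE uterus was above every E2 and BPA uterus. At 24 h the levels were -0.80 and -0.92 with E2, -1.79, -2.17 and -1.69 with BPA, and -1.31, -1.77 and -2.08 with HPTE. At 24 h the E2 uteri were above every vehicle uterus, while the BPA and HPTE groups overlapped vehicle.

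Against vehicle, Cdkn1a increased 5.54-fold with E2 (change 2.47, SE 0.32, limma adjusted p = 3.68e-05), 5.38-fold with BPA (2.43, adjusted p = 2.11e-05) and 11.9-fold with HPTE (3.58, adjusted p = 5.52e-07) at 2 h. The direct test put HPTE above E2 at 2 h by 1.11 (SE 0.32, adjusted p = 0.0269). HPTE exceeded BPA, its partner at the same dose, by 1.15 (95% interval 0.47 to 1.83, adjusted p = 0.11), which was not called. At 24 h E2 was still 1.89-fold above vehicle (0.92, adjusted p = 0.0339), a call that was lost when any 1 of the 3 vehicle or 2 E2 arrays was left out, with changes of 0.86 to 0.98. BPA and HPTE at 24 h differed from vehicle by -0.10 (95% interval -0.78 to 0.57) and 0.06 (-0.62 to 0.73). In the order of the 7 group levels, HPTE 2 h was first and was called above E2 2 h. E2 2 h and BPA 2 h did not differ beyond their spread (adjusted p = 0.946), nor did HPTE 24 h, vehicle and BPA 24 h at the low end.

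Cdkn1b encodes p27, the inhibitor that quiescent cells hold and that is removed as they enter the cycle. The levels of its brightest probe ran from 1.97 to 2.26 in vehicle, 1.52 to 1.90 in E2 2 h, 1.01 to 1.58 in BPA 2 h and 1.15 to 1.16 in HPTE 2 h. They ran from 0.85 to 1.21 in E2 24 h, 1.84 to 2.05 in BPA 24 h and 1.42 to 1.97 in HPTE 24 h. Each of the 9 uteri at 2 h lay below the vehicle range, as did both E2 uteri at 24 h.

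Cdkn1b decreased to 0.579 of vehicle with BPA (change -0.79, SE 0.16, adjusted p = 0.00109) and to 0.521 with HPTE (-0.94, adjusted p = 0.000237) at 2 h, while E2 gave -0.43 (adjusted p = 0.0666). At 24 h E2 gave 0.476 of vehicle (-1.07, adjusted p = 0.00012), while BPA (-0.15) and HPTE (-0.33) were not called. Between 2 h and 24 h the transcript fell with E2 (-0.64, adjusted p = 0.00776) and rose with BPA (0.64, adjusted p = 0.00466) and HPTE (0.61, adjusted p = 0.00535). The fall with E2 was not called without E2 24 h replicate 3 (-0.82 to -0.47 over left-out arrays), and neither the fall nor the rises were called without scaling or with scaling to spike-in probes. The rises were also lost with the slide as a block. That brightest probe (A_51_P146126, chr6:134939519-134939578, mm7, plus strand) is annotated to a cDNA clone and lies downstream of the 2 probes designed on the RefSeq transcript (chr6:134935407-134935465 and chr6:134937910-134937969). The first of these 2 had a mean log2 signal of 8.68 and the second, a dim probe, of 5.76, against 12.31 for the brightest probe. These 2 probes followed it at r = 0.90 and 0.92 over 20 arrays but gave larger decreases, and both called Cdkn1b lower with E2 at 2 h (-0.59, adjusted p = 0.0056, and -1.04, adjusted p = 0.000658) and with HPTE at 24 h (-0.39, adjusted p = 0.0448, and -0.57, adjusted p = 0.0279). The fall between 2 h and 24 h with E2 was called on the first of them (-0.57) and not on the second (-0.46, adjusted p = 0.0742). No neighbouring pair in the order of its group levels was called, with adjusted p of 0.141 to 0.705.

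Cdkn1c encodes p57, an imprinted inhibitor that is abundant in differentiated cells. Its probe (A_51_P339540, chr7:139886128-139886187, mm7, minus strand) read 4.70, 4.61 and 4.37 in vehicle. At 2 h it read 4.41, 4.30 and 4.33 with E2, 4.26, 4.07 and 4.19 with BPA, and 4.60, 4.86 and 4.26 with HPTE. At 24 h it read 2.37 and 2.46 with E2, 4.07, 4.06 and 3.85 with BPA, and 3.69, 3.74 and 3.83 with HPTE. All 8 uteri at 24 h lay below the vehicle range, with the 2 E2 uteri far below the other 6.

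At 24 h Cdkn1c was the one member that decreased with all 3 compounds, to 0.226 of vehicle with E2 (change -2.14, SE 0.14, adjusted p = 1.15e-08), 0.676 with BPA (-0.56, adjusted p = 0.00878) and 0.573 with HPTE (-0.80, adjusted p = 0.000248). The BPA call was lost without vehicle replicate 1 (-0.49) and with the slide as a block. E2 lay below BPA and HPTE at 24 h in the direct tests. BPA exceeded it by 1.58 (adjusted p = 2.5e-07) and HPTE by 1.34 (adjusted p = 2.15e-06). HPTE and BPA differed by -0.24 (95% interval -0.51 to 0.03, adjusted p = 0.302). At 2 h BPA alone was called lower (-0.38, adjusted p = 0.0199), a call that depended on vehicle replicates 1 and 2 and on BPA 2 h replicate 2, since the fit without any of these lost it. In the order of group levels, HPTE 24 h above E2 24 h was the one neighbouring pair that was called.

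Cdkn2c encodes p18 of the INK4 family. Its probe (A_51_P513719, chr4:109037613-109037672, mm7, minus strand) ranged from 1.74 to 1.86 in vehicle, 0.93 to 1.5 in E2 2 h, 0.70 to 1.2 in BPA 2 h and 0.82 to 1.12 in HPTE 2 h. At 24 h it ranged from 1.27 to 1.30 with E2, 1.82 to 1.89 with BPA and 1.81 to 2.02 with HPTE. The transcript was thus below vehicle in all 9 uteri at 2 h, and at 24 h in the E2 uteri alone.

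The decrease of Cdkn2c at 2 h was to 0.684 of vehicle with E2 (-0.55, SE 0.14, adjusted p = 0.00908), 0.530 with BPA (-0.92, adjusted p = 9.32e-05) and 0.550 with HPTE (-0.86, adjusted p = 0.00013). Without the 2 E2 2 h arrays that held pancreas transcripts, which left 1 E2 2 h uterus assumed to vary like the other groups, the E2 change was -0.32 and was not called (adjusted p = 0.245). At 24 h E2 gave 0.690 of vehicle (-0.53, adjusted p = 0.00794). BPA gave 0.05 (95% interval -0.25 to 0.35) and HPTE 0.07 (-0.23 to 0.37). From 2 h to 24 h the transcript rose 1.95-fold with BPA (adjusted p = 5.06e-05) and 1.91-fold with HPTE (adjusted p = 5.07e-05), while E2 gave 0.01 (adjusted p = 0.954). A second probe gave -0.55, -0.94 and -0.91 at 2 h, and the same calls in all 6 comparisons with vehicle. Vehicle above E2 24 h was the one pair of neighbouring levels that was called.

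**Figure D3:**
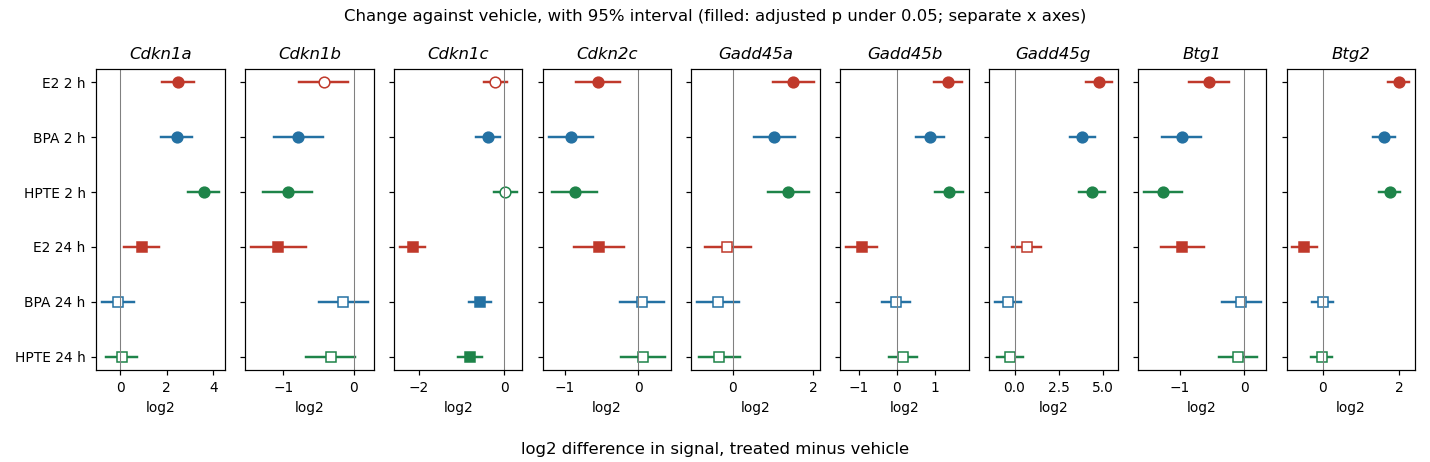
Change of each transcript against vehicle (log2, x axis, a separate scale for each gene) for the 6 treated groups, circles at 2 h and squares at 24 h, with 95% intervals and filled symbols where the adjusted p was under 0.05. Gadd45g reaches 4.76 with E2 at 2 h, and Cdkn1c has filled squares for all 3 compounds at 24 h.

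Gadd45a is the founding member of its family and is induced by DNA damage. Its probe (A_51_P296608, chr6:67017167-67017226, mm7, minus strand) ranged from 1.45 to 1.62 in vehicle, 2.81 to 3.21 in E2 2 h, 1.75 to 3.09 in BPA 2 h and 2.75 to 3.05 in HPTE 2 h. At 24 h it ranged from 1.27 to 1.52 with E2, 0.97 to 1.30 with BPA and 1.12 to 1.29 with HPTE. All 2 h uteri were above vehicle, and the lowest of them, BPA 2 h replicate 3 at 1.75, was just above. Gadd45a rose 2.85-fold with E2 (change 1.51, SE 0.24, adjusted p = 0.000268), 2.05-fold with BPA (1.04, adjusted p = 0.00242) and 2.62-fold with HPTE (1.39, adjusted p = 0.000221). At 24 h the changes against vehicle were -0.13, -0.37 and -0.33 and none was called (adjusted p = 0.708, 0.346 and 0.321). In the order of group levels, the lowest 2 h group, BPA, was called above vehicle, and no other neighbours were separated.

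Gadd45b answers cytokines and growth factors as well as stress. Its brightest probe (A_51_P500984, chr10:80721751-80721810, mm7, plus strand) ranged from 0.94 to 1.33 in vehicle, 2.48 to 2.64 in E2 2 h, 1.65 to 2.46 in BPA 2 h and 2.45 to 2.69 in HPTE 2 h. At 24 h it read 0.15 and 0.38 with E2, and ranged from 1.09 to 1.32 with BPA and 1.13 to 1.57 with HPTE. The transcript was raised in all 9 uteri at 2 h, and the E2 uteri had gone below the vehicle range by 24 h. The increases at 2 h were 2.57-fold (1.36, SE 0.17, adjusted p = 3.35e-05), 1.84-fold (0.88, adjusted p = 0.000659) and 2.61-fold (1.38, adjusted p = 1.13e-05) with E2, BPA and HPTE. At 24 h Gadd45b decreased with E2 to 0.527 of vehicle (-0.92, adjusted p = 0.000648), whereas BPA gave -0.01 (95% interval -0.38 to 0.36) and HPTE 0.18 (-0.19 to 0.55). A second probe made the same calls in all 6 comparisons with vehicle. BPA 2 h above HPTE 24 h and BPA 24 h above E2 24 h were the neighbouring levels that were called.

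Gadd45g showed the widest span of group means of the 9 members, 5.14 on the log2 scale, with E2 2 h highest and BPA 24 h lowest. Its probe (A_51_P315904, chr13:50882456-50882515, mm7, plus strand) read 3.08, 3.14 and 3.00 in vehicle. At 2 h it read 7.83, 7.96 and 7.69 with E2, 7.42, 7.57 and 5.72 with BPA, and 7.48, 7.44 and 7.39 with HPTE. At 24 h it read 3.34 and 4.17 with E2, 2.62, 2.76 and 2.69 with BPA, and 2.97, 2.70 and 2.76 with HPTE. On the unscaled signal, that is 13790 to 15540 units in vehicle and 316400 to 352600 units with E2 at 2 h. With HPTE at 2 h it was 317400 to 345400 units, and with BPA 307200, 340500 and 94000. Apart from BPA replicate 3, the 2 h arrays thus had similar unscaled signals. The 75th percentiles taken off were 1319.8 to 1702.6 in E2 2 h, 1780.7 to 1797.4 in BPA 2 h and 1803.5 to 1983.1 in HPTE 2 h. BPA 2 h replicate 3 stood apart from its group, but it was still far above every vehicle uterus.

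The changes at 2 h were 4.76 with E2 (SE 0.34, adjusted p = 2.57e-07), 3.83 with BPA (adjusted p = 7.07e-07) and 4.37 with HPTE (adjusted p = 1.84e-07). From 2 h to 24 h Gadd45g fell 16.8-fold with E2, 18.6-fold with BPA and 24.7-fold with HPTE, with adjusted p of 3.76e-07, 2.11e-07 and 5.12e-08. At 24 h none of the 3 compounds was called against vehicle (0.68, -0.38 and -0.26, with adjusted p of 0.131, 0.508 and 0.601). The difference between BPA and E2 at 24 h was called (-1.07, adjusted p = 0.0258), and that between HPTE and E2 narrowly was not (-0.94, adjusted p = 0.0524). The BPA call was lost without E2 24 h replicate 3, or without either BPA 24 h replicate 1 or 3, with differences of -1.48 to -0.65 over the left-out arrays. BPA 2 h above E2 24 h, by 3.15, was the one pair of neighbouring levels that was called.

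Btg1 and Btg2 encode close relatives of the Btg/Tob family, and the pair went in opposite directions at 2 h. The brightest Btg1 probe (A_51_P288193, chr10:96181768-96181827, mm7, plus strand) read 5.53, 5.36 and 5.36 in vehicle. At 2 h it read 5.17, 4.73 and 4.70 with E2, 4.37, 4.27 and 4.67 with BPA, and 4.18, 4.27 and 4.01 with HPTE. At 24 h it read 4.4 and 4.52 with E2, 5.41, 5.55 and 5.14 with BPA, and 5.18, 5.37 and 5.39 with HPTE. Btg1 was therefore low in all uteri at 2 h, was back in the vehicle range at 24 h in part of the xenoestrogen uteri, and was still low in both E2 uteri.

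Btg1 decreased at 2 h to 0.685 of vehicle with E2 (-0.55, SE 0.14, adjusted p = 0.00925), 0.509 with BPA (-0.97, adjusted p = 5.21e-05) and 0.418 with HPTE (-1.26, adjusted p = 4.41e-06). The E2 change was -0.24 and not called without the 2 E2 2 h arrays that held pancreas transcripts (adjusted p = 0.43). HPTE lay below E2 at 2 h by 0.71 on the log2 scale (change -0.71, adjusted p = 0.00344). BPA lay below E2 by less (-0.43, adjusted p = 0.0457), and that call was lost in 13 of the 20 fits that left out an array. At 24 h the E2 level was 0.515 of vehicle (-0.96, adjusted p = 7.97e-05), and BPA (-0.05, 95% interval -0.35 to 0.25) and HPTE (-0.10, -0.40 to 0.20) were not called. A second probe gave larger decreases at 2 h of -0.89, -1.09 and -1.59, with the same calls in all 6 comparisons with vehicle. It did not call BPA below E2 at 2 h (-0.20, adjusted p = 0.518). Vehicle, BPA 24 h and HPTE 24 h held the 3 highest levels and were not separated from each other by the test, and HPTE 24 h above E2 2 h and E2 2 h above E2 24 h were the neighbours that were called.

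The brightest Btg2 probe (A_52_P31543, chr1:133965302-133965361, mm7, minus strand) read 2.07, 2.09 and 2.18 in vehicle. Btg2 is another p53 target, and it is also an early response gene to growth factors. At 2 h its levels were 3.98, 4.09 and 4.2 with E2, 3.94, 3.90 and 3.29 with BPA, and 3.91, 3.76 and 3.91 with HPTE. At 24 h they were 1.57 and 1.70 with E2, 2.13, 2.15 and 2.06 with BPA, and 2.11, 1.99 and 2.15 with HPTE. The E2 uteri were highest of all at 2 h and lowest of all at 24 h.

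Btg2 increased at 2 h 3.94-fold with E2 (1.98, SE 0.13, adjusted p = 1.25e-07), 3.02-fold with BPA (1.6, adjusted p = 3.64e-07) and 3.36-fold with HPTE (1.75, adjusted p = 1.35e-07). At 24 h E2 gave 0.718 of vehicle (-0.48, adjusted p = 0.0102), a call lost without E2 24 h replicate 2 (changes of -0.55 to -0.41 over the left-out arrays). BPA gave 0.00 (95% interval -0.28 to 0.28) and HPTE -0.03 (-0.31 to 0.25). Both other Btg2 probes called the same 4 changes, with 1.66 and 1.76 for E2 at 2 h. Levels of vehicle, BPA 24 h and HPTE 24 h were within 0.03 of each other.

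BPA 2 h replicate 3 gave the lowest value of its group for all 5 transcripts that rose and the highest of its group for Cdkn1b, Cdkn2c and Btg1. Its stromal markers summed to 666000, against 482500 and 501500 on replicates 1 and 2. Its fat markers summed to 94420, against 50360 and 27340, and the part of either was not tested. Without BPA 2 h replicate 3 the BPA changes were 2.92 for Cdkn1a, 1.44 for Gadd45a, 1.09 for Gadd45b, 4.42 for Gadd45g and 1.81 for Btg2, and 9 of 9 members were still called. BPA and HPTE were given at the same dose, and 0 of 9 members were called between them at 2 h (0.438% of all probes were called) or at 24 h (4.08%) by limma. At an unadjusted p under 0.05 there were 3 at 2 h (Cdkn1a, Cdkn1c and Gadd45b) and 0 at 24 h. Normexp background correction called 6 at 2 h, all higher with HPTE. It also called 3498 of all probes higher and 15790 lower there, with a median of -0.58, which is the opposite direction to the 6 calls. What made these 6 calls was not tested. Over the members, the differences between HPTE and BPA at 2 h ran from -0.28 for Btg1 to 1.15 for Cdkn1a. The 95% interval for Gadd45g, -0.19 to 1.26, left room for a difference of more than 2-fold, and that for Btg2, -0.13 to 0.43, did not.

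At 2 h 1 member was called between BPA and E2 (19% of all probes), Btg1, and 3 between HPTE and E2 (16.6%), Cdkn1a above and Cdkn1b and Btg1 below E2. The Cdkn1b call between HPTE and E2 (-0.51, adjusted p = 0.0453) was lost in 12 of the 20 fits that left out an array. The Cdkn1a call was lost without E2 2 h replicate 1 or 2, or any 1 of the 3 HPTE 2 h uteri, with differences of 0.96 to 1.29. Without the 2 E2 2 h arrays that held pancreas transcripts, the differences were 1.39 for Cdkn1a (adjusted p = 0.0742) and -0.75 for Cdkn1b (adjusted p = 0.0623).

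By 24 h the groups had parted. E2 left 6 of 9 members below vehicle (Cdkn1b, Cdkn1c, Cdkn2c, Gadd45b, Btg1 and Btg2) and 1 above (Cdkn1a), while 63.8% of all probes were called. BPA and HPTE left 1 of 9 below, Cdkn1c, and 0 above, with 13.1% and 34% of all probes called. The median change over the members was -0.53 for E2, beside -0.15 over all probes. BPA exceeded E2 at 24 h for 6 members (Cdkn1b, Cdkn1c, Cdkn2c, Gadd45b, Btg1 and Btg2) and was below it for Cdkn1a and Gadd45g, beside 57.9% of all probes called. For HPTE, the differences from E2 of Cdkn1a (-0.86, adjusted p = 0.0572) and Gadd45g (-0.94, adjusted p = 0.0524) were not called. Cdkn1b, Cdkn1c, Cdkn2c, Gadd45b, Btg1 and Btg2 were also called higher with HPTE than with E2, and 0 members were called lower, beside 48.9% of all probes. When arrays were scaled to the 10 spike-in probes, Cdkn1c alone of these 6 stayed called above E2 for either compound, Gadd45g below E2 was called for both, and the calls of E2 against vehicle that stayed were Cdkn1b, Cdkn1c, Gadd45b and Btg1. Without E2 24 h replicate 2 the Btg2 calls against E2 were lost. The Btg2 call of HPTE also went when HPTE 24 h replicate 3 was left out, and without E2 24 h replicate 3 the Cdkn1b call of HPTE against E2 was lost (0.56). The Cdkn1a call of BPA against E2 (-1.02, adjusted p = 0.0224) was lost without either E2 24 h uterus or BPA 24 h replicate 2. Beside these 24 h results, the epithelial markers were highest in E2 24 h, as given above. The 7 myometrial markers summed to 1081000 to 1168000 in E2 24 h, 814100 to 945400 in BPA 24 h, 987800 to 1138000 in HPTE 24 h and 679300 to 754100 in vehicle. The 7 stromal markers summed to 930300 to 997700 in E2 24 h, 771100 to 1012000 in BPA 24 h, 963600 to 1034000 in HPTE 24 h and 635600 to 666300 in vehicle. The 7 leukocyte markers were lowest in E2 24 h at 95100 to 97520, against 228100 to 254300 in BPA 24 h, 140900 to 258000 in HPTE 24 h and 147200 to 165700 in vehicle. All of these markers were well above background on every array, and their part in the 24 h results was not tested.

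**Figure D4:**
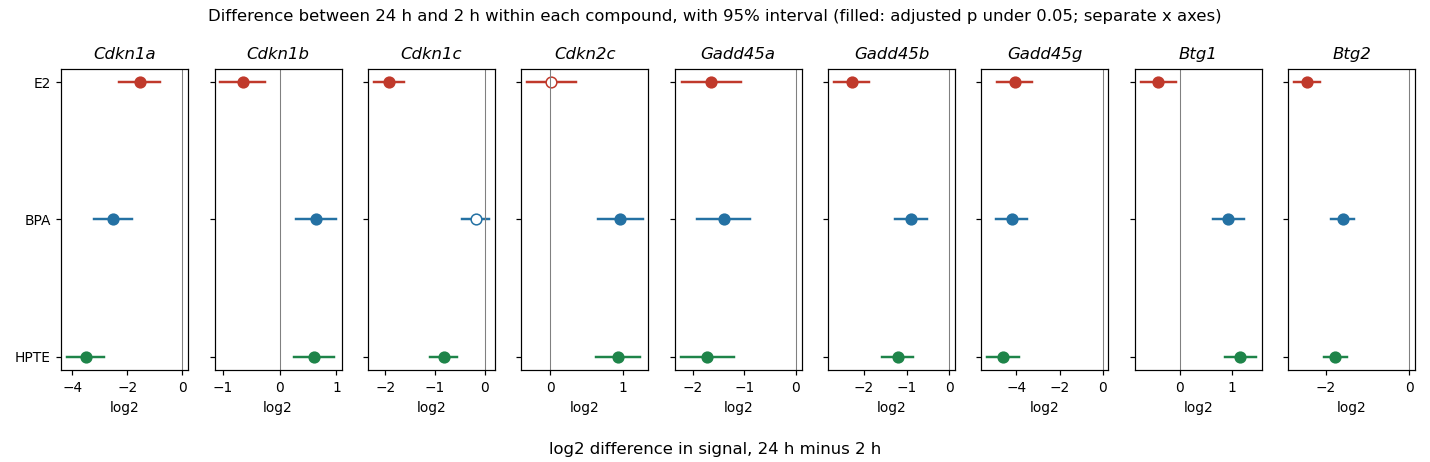
Difference between 24 h and 2 h (log2, x axis, a separate scale for each gene) within E2, BPA and HPTE, with 95% intervals and filled symbols where the adjusted p was under 0.05. Cdkn1b and Btg1 fall with E2 and rise with BPA and HPTE, and Cdkn2c rises with BPA and HPTE while E2 stays at 0.01.

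The course from 2 h to 24 h is a difference between treated groups, with the spread taken from all 20 arrays. In a fit of only the groups of the comparison, with no vehicle array, the one call of a course that was lost was Btg1 with E2. With E2, 8 of 9 members fell and 0 rose (56% of all probes were called). With BPA, 3 rose (Cdkn1b, Cdkn2c and Btg1) and 5 fell (48.4%), and with HPTE Cdkn1b, Cdkn2c and Btg1 rose as well and 6 fell (54.1%). These 6 rises were not called under spike-in scaling (0.06 to 0.73). Against vehicle at 2 h, that scaling kept the increases of Cdkn1a, Gadd45a, Gadd45b, Gadd45g and Btg2 for all 3 compounds, and of the decreases it kept those of Btg1 with BPA and HPTE. The courses of BPA and E2 differed for 6 members (50.9% of all probes), those of HPTE and E2 for 7 (46.1%) and those of HPTE and BPA for 0 (0.0863%), with 2 at an unadjusted p under 0.05 (Cdkn1a and Cdkn1c). Under spike-in scaling the courses differed for 1 of the 6 (Cdkn1c) and 1 of the 7 (Cdkn1a), and without scaling for 4 of the 6 (Cdkn1b, Cdkn1c, Gadd45b and Btg1) and 2 of the 7 (Cdkn1a and Btg1). Cdkn1b and Btg1 had courses in opposite directions. Those of Cdkn1b, given above, differed by 1.28 (adjusted p = 0.000501) between BPA and E2 and by 1.25 (adjusted p = 0.000744) between HPTE and E2. Btg1 fell with E2 (-0.41, adjusted p = 0.037) and rose with BPA (0.93, adjusted p = 7.1e-05) and HPTE (1.16, adjusted p = 6.22e-06), and the courses differed by 1.34 (SE 0.21, adjusted p = 8.95e-05) and 1.57 (adjusted p = 3.03e-05). The fall of Btg1 with E2 was itself lost without E2 2 h replicate 1 or either E2 24 h uterus (-0.50 to -0.26 over left-out arrays) and was not called on the second Btg1 probe (-0.23, adjusted p = 0.385). Cdkn1c also parted, falling by 1.93 with E2 and by 0.82 with HPTE, with -0.18 (adjusted p = 0.262) for BPA. Gadd45a and Gadd45g fell with all 3 compounds, and their courses were not called different (for Gadd45g, BPA minus E2 was -0.14, adjusted p = 0.848).

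The arrays lay on 6 slides, and slides 1, 3 and 5 held a vehicle array beside treated ones. Within slide 1, the 3 treated uteri at 2 h exceeded the vehicle uterus in Gadd45g by 4.88 (E2), 2.64 (BPA) and 4.37 (HPTE) and in Cdkn1a by 2.43, 1.49 and 3.84. Within slide 3 the differences were 4.28 (BPA) and 4.25 (HPTE) for Gadd45g and 2.93 and 3.45 for Cdkn1a. Within slide 5 the E2 24 h uterus was below vehicle by 1.91 on the log2 scale in Cdkn1c (difference -1.91), against -0.30 for BPA and -0.53 for HPTE. Within slides, every called change of these 3 transcripts against vehicle kept its direction. Of the changes that were not called, Cdkn1a with HPTE at 24 h was -0.36 within slide 5 and 0.06 in the pooled fit, and Cdkn1c with HPTE at 2 h was -0.35 within slide 3 and 0.02 in the pooled fit.

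Across the 20 arrays the members fell into patterns that can be described by their correlation, with the groups as the main source of spread. The transcripts raised at 2 h went together, with r of 0.97 between Gadd45a and Gadd45g and 0.96 between Gadd45g and Btg2. The pair Cdkn1b and Btg1 reached 0.91, as did Cdkn2c and Btg1. Cdkn1a and Cdkn2c were opposed at -0.88. Cdkn1c stood by itself, with its highest r of 0.70 to Gadd45b.

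Among 10999 candidate transcripts whose group means spanned at least 1 on the log2 scale, the 3 most like each member over the 20 arrays were listed. For Gadd45g they were Nrip1 (r = 0.992), a corepressor of nuclear receptors, Fos (0.992), a subunit of AP-1, and Igf1 (0.991), a growth factor. Btg2 was most like Myd116 (0.993), an older name of the stress gene Ppp1r15a, and the early transcription factor Egr1 (0.988). Cdkn1a was most like Gdf15 (0.984), a secreted stress cytokine. Gadd45a was most like Socs1 (0.989), a brake on cytokine signalling, and Gadd45b most like Jun (0.968). For Cdkn1c the list opened with the nuclear RNA Malat1 (0.978), for Btg1 with Ppm1k (0.974), for Cdkn2c with Tmem53 (0.961) and for Cdkn1b with Klhl24 (0.947). The arrays share groups, so these r are descriptions of likeness and carry no p.

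Genes around the members were counted in 9 lists of 113 genes, of which 110 were tested. The list counts stand beside the shares of all tested probes called against vehicle. These were 28.1%, 49.4% and 48.1% at 2 h with E2, BPA and HPTE, and 63.8%, 13.1% and 34% at 24 h. Of the other CDK inhibitors, 3 were tested. Cdkn3, a phosphatase that acts on Cdk2 and is expressed in cycling cells, increased at 24 h with E2 (2.36, adjusted p = 3.89e-06), BPA (1.14, adjusted p = 0.00861) and HPTE (2.24, adjusted p = 1.81e-05). Cdkn2b, encoding p15 of the INK4 family, decreased at 2 h with HPTE (-0.61, adjusted p = 0.00565) and BPA (-0.51, adjusted p = 0.0168) and increased at 24 h with E2 (0.70, adjusted p = 0.00337). The BPA call was lost without vehicle replicate 2 (-0.44) or BPA 2 h replicate 1 (-0.34). Cdkn2d, encoding p19, read 1.03, 0.08 and 0.80 with E2 at 2 h and 1.05 to 1.48 in vehicle (change -0.63, adjusted p = 0.0166). That call was lost without E2 2 h replicate 2, the array with the highest pancreas signal (-0.35, adjusted p = 0.0572), and without vehicle replicate 3 (-0.53, adjusted p = 0.0692). In the Btg/Tob family, Tob1 increased at 2 h with E2 (2.00), BPA (1.88) and HPTE (2.57), as did Btg3 (0.65, 0.87 and 0.96), all with adjusted p of 0.000255 or less. Tob2 rose with HPTE at 2 h (0.50, adjusted p = 0.0162), a call lost without vehicle replicate 2 or HPTE 2 h replicate 1 or 2 (0.42 to 0.44), and fell with E2 at 24 h (-0.90, adjusted p = 0.000369), and Btg3 fell with HPTE at 24 h (-0.37, adjusted p = 0.00629).

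Other genes of the cell cycle were counted in 2 lists. Of 18 S and M phase genes, 18 rose and 0 fell with E2 at 24 h, 13 rose and 1 fell with HPTE, and 8 rose and 3 fell with BPA. Their median changes were 2.48, 1.12 and 0.51, beside -0.15, -0.06 and -0.03 over all tested probes. Ccnb1, the mitotic cyclin, rose by 3.53 and Top2a, the topoisomerase of dividing cells, by 3.19 with E2. At 2 h 1 of the 18 rose and 1 fell with E2, 5 rose and 2 fell with BPA, and 2 rose and 1 fell with HPTE. In the direct comparison at 24 h, 18 of the 18 were lower with BPA than with E2 and 14 lower with HPTE than with E2. Of all probes, 57.9% and 48.9% were called in these 2 comparisons. Of 19 cyclins, CDKs and E2F-Rb genes of G1 and S phase, 14 rose and 4 fell with E2 at 24 h. Cdc6, a replication licensing factor, rose by 3.34 and Ccne1, encoding cyclin E1, by 2.86, while Cdk6 (-1.21) and Rbl2 (-0.88), a relative of Rb1, fell. With BPA 1 of the 19 rose and 3 fell, and with HPTE 5 rose and 3 fell. At 2 h 3 of the 19 rose and 0 fell with E2, 7 rose and 5 fell with BPA, and 3 rose and 4 fell with HPTE.

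**Figure D5:**
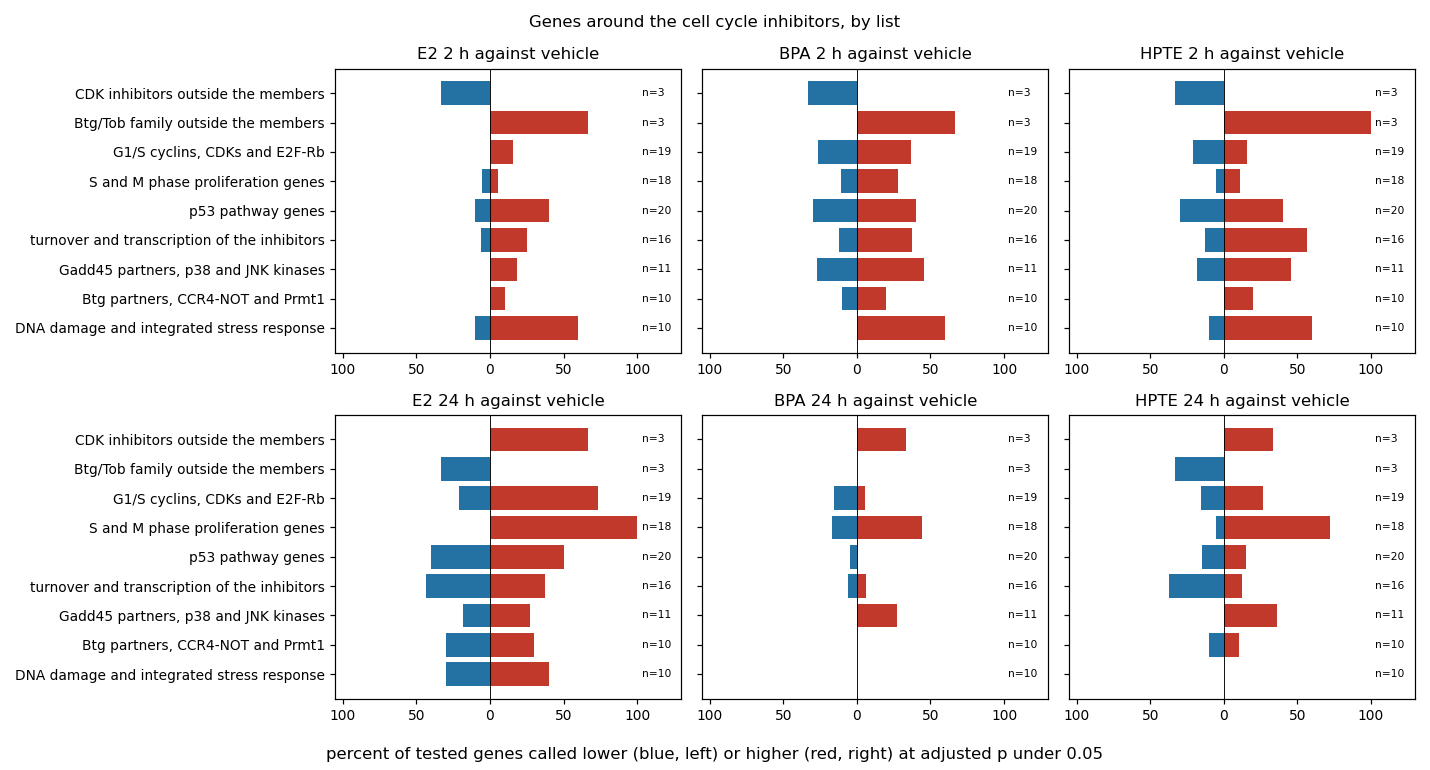
Percent of the tested genes of each list called higher (red, right) or lower (blue, left) than vehicle at adjusted p under 0.05, for each compound and time, with n the number of tested genes. The 18 S and M phase genes fill the right side for E2 24 h, and no gene of the stress response list is called for BPA or HPTE at 24 h.

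Of 20 genes of the p53 pathway, 8 rose and 2 fell with E2 at 2 h, 8 rose and 6 fell with BPA, and 8 rose and 6 fell with HPTE. The kinases Plk2 (4.03 with E2) and Plk3 (3.02 with BPA) had the largest increases of the list. Sesn1, a sestrin, decreased with all 3 compounds (-0.93, -1.18 and -1.90), although the E2 call was lost without both pancreas-marked E2 2 h arrays (-0.79, adjusted p = 0.198). Without scaling between arrays, the E2 count at 2 h became 2 higher and 4 lower. At 24 h 10 rose and 8 fell with E2, with Rrm2b, a subunit of ribonucleotide reductase, at -1.27, against 0 and 1 with BPA and 3 and 3 with HPTE.

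Of 10 genes of the DNA damage and integrated stress response, 6 rose with each compound at 2 h, and 1 fell with E2, 0 with BPA and 1 with HPTE. The list median was 0.70, 0.91 and 0.76, beside -0.06, -0.10 and -0.09 over all probes. Atf3, a stress-induced transcription factor, rose by 3.22, 3.48 and 3.43, and Ppp1r15a, which restores translation after stress, by 2.32, 2.00 and 2.17. At 24 h 4 rose and 3 fell with E2, Ddit3 (-1.32) and Atf3 (-0.92, lost without vehicle replicate 3 at -0.65 or E2 24 h replicate 2 at -0.88) among the latter, and 0 of 10 were called with BPA or HPTE by limma, with 0 and 2 at an unadjusted p under 0.05 and 0 calls also under quantile normalization, no scaling and spike-in scaling.

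Of 16 tested genes listed for the transcription and turnover of the inhibitors, 4 rose and 1 fell with E2 at 2 h, 6 and 2 with BPA, and 9 and 2 with HPTE. The called shares of 31.2% and 50% with E2 and BPA were near those of all probes (28.1% and 49.4%). With HPTE the share was 68.8%, beside 48.1%. Cebpb (3.15 with E2) and Klf4 (2.25 with E2), both transcription factors, were highest. At 24 h E2 raised 6 and lowered 7, among them Klf6 (-1.08) and Cebpa (-0.86). BPA raised 1 and lowered 1, and HPTE raised 2 and lowered 6. Of 11 p38 and JNK kinases and partners of Gadd45, 2 rose and 0 fell with E2 at 2 h, 5 and 3 with BPA, and 5 and 2 with HPTE, with Mapkapk2, a p38 target kinase, at 1.99 with HPTE and Map2k6, a p38 activator, at -0.96 with BPA. At 24 h 3 rose and 2 fell with E2 (Mapk11 at 1.40 and Mapk8 at -1.06), 3 and 0 with BPA, and 4 and 0 with HPTE. Of 10 genes of CCR4-NOT and Prmt1, the partners of Btg proteins, 1, 2 and 2 rose and 0, 1 and 0 fell at 2 h with E2, BPA and HPTE. The called shares of 10%, 30% and 20% were below the 28.1%, 49.4% and 48.1% of all probes. With E2 at 24 h 3 rose, led by Prmt1 (1.54), and 3 fell, led by Cnot6l (-0.55).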

How the data were processed

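Total RNA of 20 mouse uterine samples was hybridized to one-colour Agilent arrays (500 ng, Cy3), and the authors extracted them with Agilent Feature Extraction 9.5. The deposited intensity values are processed signals, and the deposited flags for background, saturation and outliers were also used. Per the file headers, probe positions are on mm7. Precision is limited by the number of arrays. In R 4.3.3, control spots (1639 of 45018) and outlier spots were left out, spots of a probe were averaged, and log2 signals were reduced by the 75th percentile of each array (1320 to 2046). Tests covered 32456 of 41174 probes, those that all arrays of 1 or more groups marked as well above background and that had no value on 2 arrays at most. A model of 7 group means was fitted with limma 3.58.1, with 15 contrasts, 3 interactions and an F test, adjusted by Benjamini-Hochberg. The script was tested on simulated data. Members, lists and named genes were chosen with earlier results of these data known. Named genes were the 9 members, up to 2 called genes with the largest change each way per list, and the 3 most correlated transcripts per member. Further values of these named genes in other comparisons were given after they were seen. Same-numbered arrays of different groups did not deviate together (median r -0.05), so numbers were not used as pairs. Alternatives covered normalization, background, filter, slide, scan day, probes, thresholds and each array left out. The alternative without the pancreas-marked E2 2 h arrays, and the arrays left out for the named list genes, were chosen after seeing the data.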

Additional observations from a re-analysis of the deposited data

Results flagged for a closer look

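The courses from 2 h to 24 h were compared between compounds with an interaction term in the limma fit of all 20 arrays, and 13 member results differed. Against the course of E2, that of BPA was higher by 1.28 for Cdkn1b, 1.75 for Cdkn1c, 0.95 for Cdkn2c, 1.39 for Gadd45b, 1.34 for Btg1 and 0.86 for Btg2 on the log2 scale. The course of HPTE was higher than that of E2 by 1.25 for Cdkn1b, 1.11 for Cdkn1c, 0.92 for Cdkn2c, 1.08 for Gadd45b, 1.57 for Btg1 and 0.67 for Btg2. For Cdkn1a it was lower, with a difference of -1.96. Under spike-in scaling 11 of these 13 were no longer called, leaving Cdkn1c for BPA and Cdkn1a for HPTE, and without scaling 7 were not called. The shares of all probes with differing courses were 50.9% for BPA and 46.1% for HPTE.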

How the results depend on the processing

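No change of a member turned direction while called under any alternative. The numbers of members called moved as follows. BPA against E2 at 2 h, with 1 member called, gave 0 under quantile normalization, no scaling, spike-in scaling, no filter on dim probes, the slide, scan day or replicate number as a block, only the groups of the comparison, a required 2-fold change, the methods' threshold (unadjusted p under 0.001 and a signal over 100) and the mean of all probes. It gave 2 with only probes well above background on all arrays, array weights, a variance trend, normexp with quantile normalization, or the pancreas-marked E2 2 h arrays left out, and 5 with normexp. Spike-in scaling also gave 4 of 7 for E2 24 h, 0 of 1 for BPA 24 h, 5 of 8 for BPA 24 h against 2 h, 0 of 3 for HPTE against E2 at 2 h, 2 of 8 for BPA against E2 at 24 h (Cdkn1c and Gadd45g) and 2 for HPTE against E2 at 24 h, namely 1 of the 6 (Cdkn1c) and Gadd45g, which was not called before. No scaling gave 4 for E2 24 h. Normexp gave 0 for BPA 24 h and 6, all higher, for HPTE against BPA at 2 h (0 before), where it called 3498 of all probes higher and 15790 lower. Normexp with quantile normalization gave 3 for HPTE 24 h. The slide as a block gave 0 for BPA 24 h and 1 for HPTE against E2 at 2 h. Only the groups of the comparison, or the mean of all probes, gave 2 for HPTE 24 h. A required 2-fold change gave 4 for BPA 2 h, 2 for E2 24 h, 0 for BPA 24 h and HPTE 24 h, 4 for BPA 24 h against 2 h, 1 for HPTE against E2 at 2 h, and 3 and 2 for BPA and HPTE against E2 at 24 h. The methods' threshold gave 4 for E2 24 h, 1 for HPTE against E2 at 2 h, and 4 and 3 for BPA and HPTE against E2 at 24 h. Leaving out the pancreas-marked arrays gave 1 for HPTE against E2 at 2 h. Beyond the effect of these settings' construction, the cause was not tested.

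With each array left out in turn, members called ranged from 7 to 8 for E2 2 h, 8 to 9 for BPA 2 h, 8 to 8 for HPTE 2 h, 5 to 8 for E2 24 h, 0 to 1 for BPA 24 h and 1 to 1 for HPTE 24 h. From 2 h to 24 h they ranged from 6 to 8 for E2, 8 to 8 for BPA and 9 to 9 for HPTE. Between compounds at 2 h they ranged from 0 to 3 for BPA and E2, 1 to 4 for HPTE and E2 and 0 to 1 for HPTE and BPA, and at 24 h from 6 to 8, 5 to 8 and 0 to 0. Leaving out an E2 24 h array leaves 1 uterus, which is then assumed to vary like the other groups.

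The replicate block took away 3 calls, Btg1 from 2 h to 24 h with E2 (-0.39, adjusted p = 0.0674), Btg1 between BPA and E2 at 2 h (adjusted p = 0.0624) and Cdkn1b between HPTE and E2 at 2 h (adjusted p = 0.0665), and changed no other call. The median of all probes moved by more than 0.5 in 5 comparisons, from 0.03 to -0.58 for HPTE against BPA at 2 h, from -0.10 to 0.48 for BPA 2 h, from 0.06 to -0.45 for BPA 24 h against 2 h and from -0.02 to 0.53 for BPA against E2 at 2 h under normexp, and from 0.05 to -0.50 for HPTE 24 h against 2 h under spike-in scaling. The share of higher calls among all probes for E2 2 h went from 39.5% to 12.6% without scaling. All 9 members were well above background on all arrays, so low signal did not limit them. None was flagged as saturated, and whether the brightest signals were still proportional to RNA was not tested. The limits are 2 uteri for E2 24 h and the missing vehicle group at 2 h. Others are sperm transcripts, highest on vehicle arrays and unequal between compounds, and pancreas transcripts on E2 arrays. Fat, stromal and leukocyte markers were unequal between groups as well.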
